A study of Rattus norvegicus with 9 samples.

Results

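Rpl3l encodes a striated muscle form of ribosomal protein L3 and is described here as a single gene, 1 of 24660 loci that could be followed across 9 RNA-seq libraries of rat heart. It was chosen by its measured FPKM level, which was low in fetal and high in adult ventricle in these same libraries, so its difference between fetal and adult heart is given as a description, without a test. The gene was taken by its name where a library's gene table carried that name, which was the case in 2 libraries. In the other 7 libraries the transcripts of the same locus were summed. The question of the study was how transcripts of the overloaded adult heart relate to those of the fetal heart.

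All rats were of the Sprague-Dawley strain. The fetal libraries (n = 3, titled as litters 1 to 3) came from the ventricle at embryonic day 18, with RNA isolated in Trizol. The TAC libraries (n = 3) came from the left ventricle of adults that had undergone transverse aortic constriction, in which the aorta is narrowed so that the heart pumps against pressure. The sham libraries (n = 3) came from the left ventricle of adults operated on without the constriction. RNA of both adult groups was isolated on columns. Age, region of the heart and RNA isolation therefore cannot be told apart between fetal and adult libraries. The interval from surgery to sampling and the number of animals per adult library are not stated in the labels, so p-values measure the spread between libraries, which may be technical. In bulk tissue, fewer cells of a type and less RNA per cell cannot be told apart.

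Ribosomal protein L3 is a core protein of the large (60S) ribosomal subunit and reaches towards the centre where peptide bonds are formed. Most tissues make it from Rpl3. Skeletal and heart muscle also make a closely related protein from a separate gene, Rpl3l, which in mice is the main L3 form of mature muscle.

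The RefSeq promoters of the genes are shown because these paralogs were opposite in level between fetal and adult heart, as described below. Each sequence is the 250 bases before the gene's start in the GRCr8 assembly, which is not the rn4 build of the expression files. Rpl3l lies at chr10:14258196-14258445 on the plus strand and Rpl3 at chr7:113507991-113508240 on the minus strand. Capitals mark matches to 6 motifs searched on both strands: the E-box CANNTG, the TATA box TATAAA, the GC box GGGCGG, the CCAAT box, and the CArG box and MEF2 motif, which had no match in either. No matches overlapped.
Rpl3l: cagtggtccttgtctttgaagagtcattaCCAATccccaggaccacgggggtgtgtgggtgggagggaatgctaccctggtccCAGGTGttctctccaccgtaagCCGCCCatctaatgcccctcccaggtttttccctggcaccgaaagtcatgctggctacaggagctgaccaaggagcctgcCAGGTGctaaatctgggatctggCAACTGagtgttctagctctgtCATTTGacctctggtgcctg
Rpl3: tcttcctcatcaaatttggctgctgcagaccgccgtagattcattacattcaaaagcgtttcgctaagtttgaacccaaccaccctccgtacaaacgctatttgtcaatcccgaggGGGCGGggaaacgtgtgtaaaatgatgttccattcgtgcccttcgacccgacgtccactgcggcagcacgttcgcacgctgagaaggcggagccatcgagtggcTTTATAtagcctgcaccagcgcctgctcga
The Rpl3l window held 4 E-boxes, the nearest 20 bases before the start, 1 GC box and 1 CCAAT box. The Rpl3 window held 1 match to the TATA motif 30 bases before the start, on the strand opposite the gene (TTTATA as printed). It also held 1 GC box, and no E-box. Rpl3l had 4 CpG dinucleotides and 56.4% G and C, and Rpl3 had 21 CpG dinucleotides and 53.6% G and C. Over all 33469 RefSeq rat promoters of this length the median was 5 CpG, and 65.54% held an E-box, 12.93% the TATA box, 30.47% the GC box and 34.02% the CCAAT box. These matches describe the letters of the windows only.

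In rn4, the reference transcript of Rpl3l (ENSRNOT00000019660, 798 nt) spans 13989684 to 13992490 on chromosome 10. Values are FPKM (fragments scaled by transcript length and by 1000000 mapped fragments), rescaled so that libraries can be compared. Rpl3l stood at 0.124, 0.168 and 0.129 in fetal replicates 1 to 3. It stood at 393.6, 560.7 and 442.1 in TAC replicates 1 to 3, and at 362.4, 456.9 and 554.8 in sham replicates 1 to 3. The fetal libraries were low and lay far below every adult library, while the TAC and sham ranges overlapped. The highest library was 1.35 times the lowest among fetal, 1.43 times among TAC and 1.53 times among sham libraries. Each fetal value rests on the same implied count of 2 fragments, so the fetal ratio does not measure a spread in level.

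**Figure D1:**
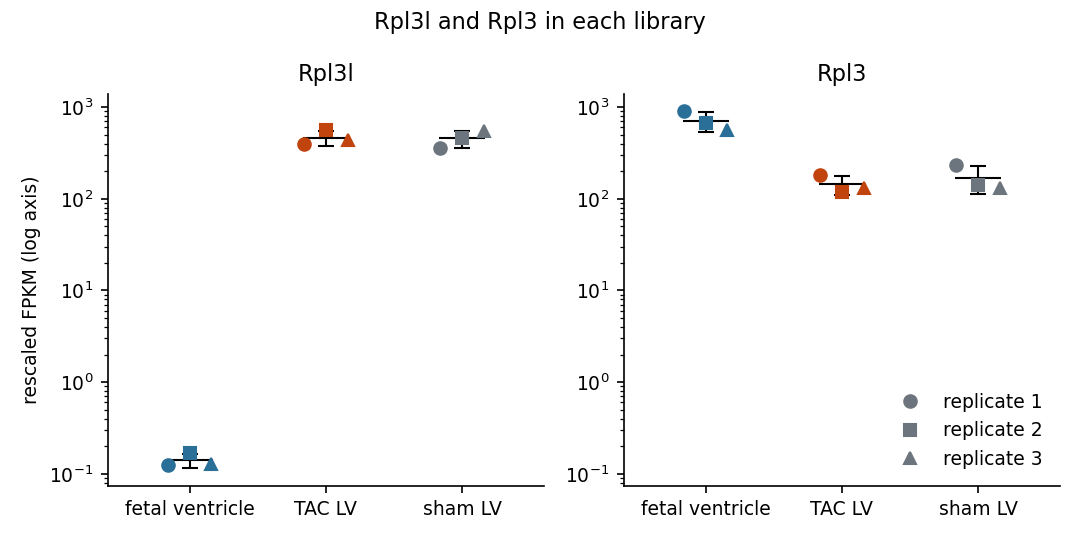
Rpl3l (left) and Rpl3 (right) in rescaled FPKM on a log axis, with 1 point for each library, shaped by replicate number, and the mean ± SD of each group (n = 3). Rpl3l lay below 0.2 in every fetal library and above 300 in every adult library, and Rpl3 was highest in the fetal libraries.

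The fetal mean was 0.140 ± 0.0241, against 465.5 ± 86.0 in TAC and 458.0 ± 96.2 in sham (SD, n = 3 each). On the log2(value + 1) scale, which understates differences of low values, fetal minus sham was -8.63 (standard error 0.187) and fetal minus TAC was -8.66. Each fetal value rests on 2 fragments, as implied by the deposited confidence bounds, which reached 0 at the lower end and 0.3003, 0.4057 and 0.3104 at the upper end in fetal replicates 1 to 3. The fetal mean was lower than the sham mean by a factor of 3264 (sham over fetal), with a range of 1499 to 8893 from the exact 95% Poisson interval of the 6 fetal fragments, which covers counting error only. It was lower than the TAC mean by a factor of 3317 (TAC over fetal), with a range of 1524 to 9038. The highest fetal upper bound lay below the lowest adult library by a factor of 893.2.

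Among the 14133 tested loci, 0 had a larger difference in the direction of Rpl3l on this scale in either fetal comparison. Rpl3l was chosen by these same values, so its rank is a description only. This rank rests on the assembled transcripts: on reference transcripts alone fetal minus sham was -4.16 for Rpl3l, -6.66 for Aqp7 and -5.18 for Hspb6. The next loci with a gene symbol in fetal against sham were Myom2, a protein of the sarcomeric M-band (-8.24), and Akr1cl1, named as an aldo-keto reductase (-8.19). Aqp7, a glycerol channel (-7.23), followed, and a large difference was also seen for Acss1, a mitochondrial enzyme that activates acetate (-6.95). Within each library, between 9.48% and 10.55% of the loci above 0 lay below Rpl3l in fetal, between 97.9% and 98.36% in TAC, and between 97.81% and 98.7% in sham. In the adult heart Rpl3l was thus among the most abundant transcripts per length, and in fetal heart it was near the lower limit of detection.

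Between TAC and sham, Rpl3l did not differ beyond the spread of the libraries. TAC minus sham was 0.03 on the log2 scale, with a 95% interval of -0.40 to 0.46 (limma, adjusted p = 1), and an exact two-sided permutation test of the 6 adult libraries gave p = 0.9, where the smallest possible p is 0.1. The sign was not stable: with libraries scaled to equal totals the difference was -0.051. For comparison, limma called 2 of 14133 loci (0.0142%) between TAC and sham, and 606 loci had an unadjusted p below 0.05.

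The adult signal came mostly from transcripts that the authors' assembly built anew. All 6 adult libraries held assembled transcripts at the locus, 7 in all, and the 3 fetal libraries held none. The assembled transcripts started between 13981876 and 13981939, ahead of the reference transcript in chromosome coordinates, and were 1268 to 1406 nt long. Assembled transcripts carried 63.96%, 79.95% and 100% of the Rpl3l value in TAC replicates 1 to 3, and 82.52%, 100% and 76.52% in sham replicates 1 to 3.

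The reference transcript alone was listed at 141.9, 112.4 and 0 in TAC replicates 1 to 3 and at 63.4, 0 and 130.2 in sham replicates 1 to 3. All of the fetal value was on the reference transcript. The zeros fell in TAC replicate 3 and sham replicate 2, where the whole value was listed on assembled transcripts. On the reference transcript alone the fetal minus sham difference was -4.16 and the fetal minus TAC difference -4.47.

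**Figure D2:**
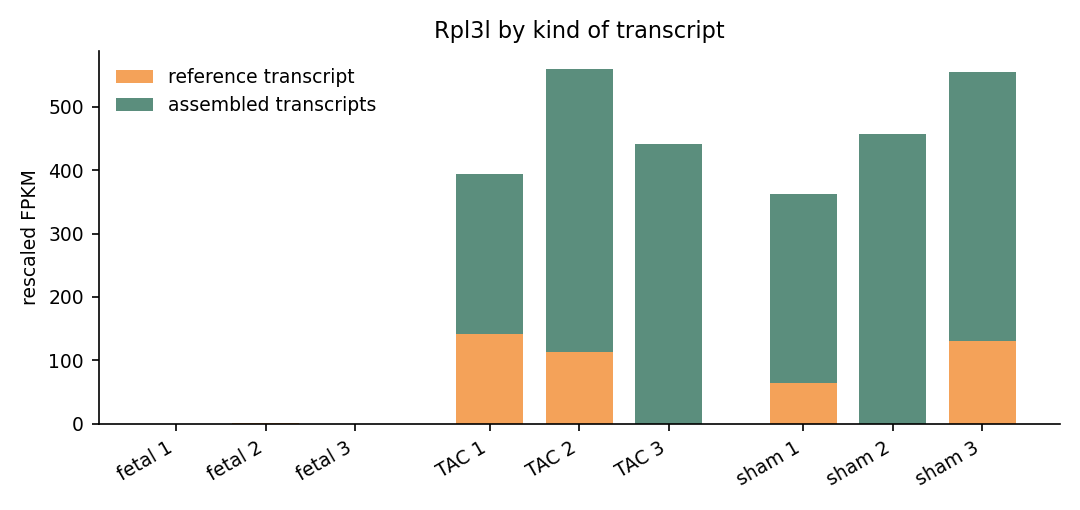
Rpl3l in each library, in rescaled FPKM, with the reference transcript and the assembled transcripts stacked. The fetal bars, all under 0.2, are too low to be seen, and in TAC replicate 3 and sham replicate 2 the whole bar is assembled.

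Rpl3, the broadly expressed paralog, had the opposite order. It stood at 899.1, 664.8 and 557.5 in fetal replicates 1 to 3, at 181.8, 119.7 and 130.4 in TAC, and at 236.5, 140.5 and 131.6 in sham. Its reference transcripts (ENSRNOT00000022949 and ENSRNOT00000067032) lie on chromosome 7 of rn4, from 118314534 to 118319911. Every fetal library was above every adult library, and TAC and sham overlapped.

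Rpl3 averaged 707.2 ± 174.7 in fetal, 144.0 ± 33.2 in TAC and 169.5 ± 58.1 in sham (SD, n = 3 each). It rose in fetal relative to sham by 2.08 on the log2 scale (standard error 0.281, limma adjusted p = 0.000499), and relative to TAC by 2.28 (adjusted p = 0.000305). The fetal mean was 4.17 times the sham mean and 4.91 times the TAC mean. These fetal comparisons called 6451 of 14133 loci (45.6%) and 6468 loci (45.8%), and they share the fetal libraries. Within replicates 2 and 3, which differ from replicate 1 in the length of their shortest assembled feature (63 nt against 43 nt), the fetal minus sham value of Rpl3 was 2.15. TAC minus sham was -0.21 for Rpl3 (95% interval -0.85 to 0.44, limma adjusted p = 1). Between same-numbered libraries Rpl3 was lower in TAC than in sham in all 3, and replicates 2 and 3 alone gave -0.12. Leaving out sham replicate 1 but not TAC replicate 1 gave 0.058.

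Added together, the genes gave totals whose ranges overlapped between all groups. The sum of Rpl3l and Rpl3 was 557.6 to 899.2 in fetal, 572.4 to 680.5 in TAC and 597.4 to 686.4 in sham libraries. The fetal mean of the sum was 1.13 times the sham mean and 1.16 times the TAC mean, where the Rpl3 means alone differed by the ratios above. Reference and assembled models differ in length, which enters each value.

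The share of Rpl3l in that sum was 0.0138%, 0.0253% and 0.0230% in fetal replicates 1 to 3, 68.4%, 82.4% and 77.2% in TAC, and 60.5%, 76.5% and 80.8% in sham. It was highest in the adult groups, where Rpl3l exceeded Rpl3 in each of the 6 libraries, by 1.53 to 4.68 times. Mean shares were 0.0207 ± 0.00607% in fetal, 76.0 ± 7.08% in TAC and 72.6 ± 10.7% in sham (SD, n = 3 each). TAC minus sham was 3.402 percentage points, and an exact two-sided permutation test gave p = 0.6, where the smallest possible p is 0.1. Replicate 1 had the lowest Rpl3l and the highest Rpl3 of its group in fetal, TAC and sham libraries, though each fetal Rpl3l value rests on 2 fragments. Without sham replicate 1 the difference in share was -2.64 points. Whether the assembly difference of replicate 1 plays a part was not tested.

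The other proteins of the large subunit give the setting for this pair. Of 47 large subunit genes listed besides Rpl3l, 36 had a symbol in the files, and 37 loci were tested in limma. In fetal against sham 4 loci rose and 0 fell, against 22.5% and 23.1% of all tested loci. At an unadjusted p below 0.05 the counts were 8 and 0, against 7445 of all 14133 tested loci in either direction. In fetal against TAC 4 (Rpl3, Rpl5, Rpl11 and Rpl15) rose and 0 fell, against 22.8% and 22.9% of all tested loci. The unadjusted counts there were 6 and 0, against 7455 of all 14133 tested loci in either direction. The median fetal minus sham difference over the 37 loci was 0.70, beside 0.04 over all tested loci. With replicate number as a block 10 of the 37 loci rose, in a fit that called 6718 of 14133 loci in either direction. The count was 1 without fetal replicate 1 or without sham replicate 3, and 2 on reference transcripts alone. Those fits called 5132, 5697 and 2015 loci of all kinds in either direction.

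The loci that rose against sham included Rpl3, Rpl11 (difference 0.90, limma adjusted p = 0.0193) and Rpl5 (0.70, adjusted p = 0.0331), all components of the 60S subunit. Rpl11 and Rpl5 bind the 5S ribosomal RNA. Rpl5 stood at 900.5, 523.1 and 608.7 in fetal libraries, 421.2, 334.7 and 319.0 in TAC, and 468.0, 369.1 and 382.8 in sham, with no overlap between fetal and adult groups. None of the 37 loci had a larger fetal minus sham difference than Rpl3, and 1, Rpl39, which was listed at 0 in TAC replicate 1 and was not called, had a larger fetal minus TAC difference. The calls of Rpl5 and Rpl11 were lost when single fetal or sham libraries were left out, while that of Rpl3 held in each of these fits. Ribosomal protein genes have many near-identical copies in the genome, and 4 of the 37 loci look like single-exon copies, so reads may be divided among them.

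By level per length, Rpl3l ranked above all 37 other large subunit loci in sham and below 3 of them in TAC, while all 37 were above it in fetal. Their median level was 213.0 in fetal, 109.4 in TAC and 114.6 in sham. Rpl3 ranked below 1 of the other loci in fetal, below 15 in TAC and below 16 in sham. The order thus placed Rpl3l at or near the top in adult heart and Rpl3 near the top in fetal heart.

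**Figure D3:**
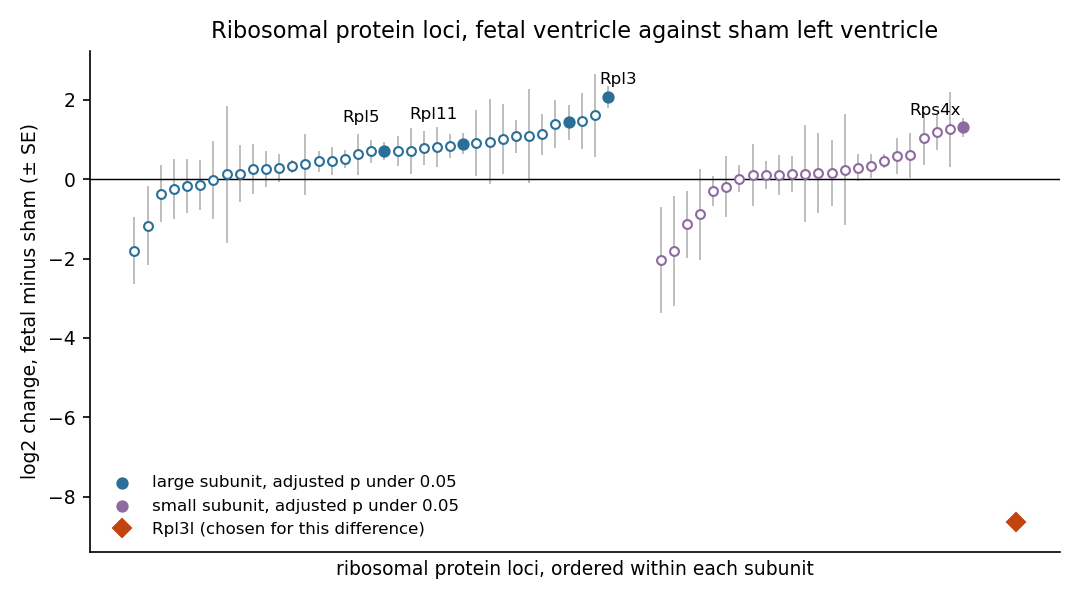
Fetal minus sham log2 difference (± standard error) of each tested ribosomal protein locus, ordered within the large and the small subunit, with Rpl3l at the right. Filled circles have an adjusted p below 0.05 in limma and open circles do not. Of the filled circles, Rpl3, Rpl5, Rpl11 and the Rps4x locus of chromosome 4 are labelled. Rpl3l, which was chosen for its fetal to adult difference, lies at -8.63, below every other ribosomal protein locus.

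In the small subunit, 24 loci of 22 genes were tested. In fetal against sham 1 rose and 0 fell, against 22.5% and 23.1% of all tested loci. At an unadjusted p below 0.05 the counts were 3 and 0, against 7445 of all 14133 tested loci in either direction. The median difference was 0.15. The risen locus, on chromosome 4, carries the name Rps4x and looks like a single-exon copy (difference 1.31, limma adjusted p = 0.0024). Another tested locus named Rps4x, on chromosome X, does not look like a single-exon copy and was not called (0.14, limma adjusted p = 0.939). With the replicate block 3 of the 24 rose, in the fit that called 6718 of 14133 loci in either direction.

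Other tissue-restricted or duplicated forms of ribosomal proteins were also listed. The 5 that were measured were Rpl22l1, Rpl36al, Rpl26l1, Rps27l and Rps4y2. The loci of 3 of them, Rpl26l1, Rps27l and Rps4y2, look like single-exon copies, so their values may not be those of the paralog genes. With all 9 libraries limma called 0 of the 5 in fetal against sham. At an unadjusted p below 0.05 the count was also 0, against 7445 of all 14133 tested loci in either direction. Rpl22l1 averaged 23.6 ± 10.1 in fetal, 42.3 ± 28.9 in TAC and 39.2 ± 27.3 in sham (SD, n = 3 each). Rps4y2 averaged 48.5 ± 7.05 in fetal and 20.02 ± 7.62 in sham, with a difference of 1.28 and an adjusted p of 0.315 in limma. It was called with the fetal and sham libraries alone (1.28, adjusted p = 0.00934), without TAC replicate 2 (1.28, adjusted p = 0.00596) and on reference transcripts alone (2.42, adjusted p = 0.0429). It was listed at 0 in 2 TAC libraries and at 16.2 in the other, and was called between fetal and TAC (4.25, adjusted p = 0.00744). Rpl36al was listed at 0 in 1 fetal library and between 8.56 and 310.6 in the others, so its groups cannot be ordered.

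Among translation elongation factors, 4 of 10 genes had a symbol, of which 1 rose and 1 fell in fetal against sham (limma), against 22.5% and 23.1% of all tested loci. Eef1a2, the form of elongation factor 1 alpha found in muscle and neurons, stood at 285.2, 439.3 and 367.7 in fetal, 888.6, 1350 and 1003 in TAC, and 991.1, 1160 and 1413 in sham libraries. It fell in fetal relative to sham by 1.71 on the log2 scale (limma adjusted p = 0.000612), and its fetal range lay below all adult values. Like Rpl3l, Eef1a2 is a muscle form beside a broadly used paralog, with a difference of -1.71 where Rpl3l had -8.63. Eef1e1, a protein associated with aminoacyl-tRNA synthetases, rose by 0.81 (limma adjusted p = 0.00361), at 19.2 to 22.5 in fetal and 10.7 to 11.9 in sham. On reference transcripts alone its difference was the same 0.81, with an adjusted p of 0.0508. Eef2, the translocation factor, averaged 1092 ± 179 in fetal, 995.0 ± 136 in TAC and 1025 ± 126 in sham and was not called. Eef1b2, a subunit of the exchange factor for elongation factor 1, was listed at 0 in 2 fetal, 1 TAC and 2 sham libraries and was not called.

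Of 28 genes listed for assembly of the 60S subunit, 13 were measured, and 6 rose and 0 fell in fetal against sham (limma), against 22.5% and 23.1% of all tested loci. At an unadjusted p below 0.05 the counts were 6 and 1, against 7445 of all 14133 tested loci in either direction. The median difference was 0.72. Npm1, the nucleolar chaperone nucleophosmin, averaged 215.7 ± 112 in fetal, 60.8 ± 9.59 in TAC and 59.96 ± 21.2 in sham, a difference of 1.77 (adjusted p = 0.00472). Nop58, a core protein of box C/D ribonucleoproteins, stood at 66.1 to 77.1 in fetal, 20.2 to 23.6 in TAC and 19.8 to 22.5 in sham, a difference of 1.70 (adjusted p = 1.92e-05). Fbl, the methyltransferase of those particles, had a difference of 1.06 (adjusted p = 0.00407). The groups of these genes overlapped between TAC and sham and not between fetal and adult. The remaining risen members were Nop2, Nip7 and Nol9. On reference transcripts alone 3 members rose, in a fit that called 2015 loci of all kinds in either direction.

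Most measured genes known to come up in striated muscle after birth fell in fetal ventricle. Of 44 listed, 17 had a symbol and 16 were tested in limma, where 13 fell and 1 rose in fetal against sham, against 23.1% and 22.5% of all tested loci. The median difference was -3.67. Myom2 stood at 2.44, 5.47 and 2.37 in fetal, 987.4, 1323 and 1021 in TAC, and 1007, 1325 and 1541 in sham libraries, and on reference transcripts alone its fetal minus sham difference turned to 1.61. Aqp7 averaged 0.872 ± 0.118 in fetal, 196.1 ± 33.8 in TAC and 287.1 ± 77.6 in sham. Hspb6, a small heat shock protein of muscle, averaged 63.7 ± 21.3 in fetal, 2245 ± 374 in TAC and 2256 ± 328 in sham, a difference of -5.18 (adjusted p = 4.98e-06). Casq1, the calcium-binding protein of the fast muscle reticulum, rose by 1.31 (adjusted p = 0.0311), but this call was lost in 7 alternative fits and its sign turned on reference transcripts alone. On the same scale the difference of Rpl3l, at -8.63, was larger in size than that of each of these 16 genes. On reference transcripts alone it was -4.16, smaller than at least those of Aqp7 and Hspb6, given above. Mb, also among the 16, had a difference of -4.32 on all transcripts, with 99.88% of its level on reference transcripts.

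Some regulators with known roles in muscle were listed as well. Of 5 tested, 2 fell and 0 rose in fetal against sham (limma), against 23.1% and 22.5% of all tested loci. At an unadjusted p below 0.05 the counts were 2 and 1, against 7445 of all 14133 tested loci in either direction. Thrb, the beta receptor of thyroid hormone, stood at 0.687, 0.577 and 0.497 in fetal, 32.6, 35.5 and 27.9 in TAC, and 29.2, 33.4 and 37.1 in sham libraries (difference -4.42, adjusted p = 1.04e-06). On reference transcripts alone the difference of Thrb was -2.63 (adjusted p = 0.0522). Esrra, an orphan nuclear receptor of oxidative metabolism, averaged 27.4 ± 7.80 in fetal, 94.9 ± 21.8 in TAC and 116.7 ± 24.9 in sham (-2.07, adjusted p = 0.000384). Their groups overlapped between TAC and sham and not between fetal and adult. Srf, Mef2a and Esrrb, other muscle or heart transcription factors, were not called. Between TAC and sham limma called 0 loci in the ribosomal protein, elongation, assembly, postnatal muscle and regulator lists, against 0.00708% of all tested loci in each direction, with 2 higher and 2 lower at an unadjusted p below 0.05.

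The loci around Rpl3l had smaller differences. Within 100 kb, 8 named or unnamed neighbours were tested, and 3 fell in fetal against sham in limma, against 23.1% of all tested loci. Distances are from the reference transcript of Rpl3l, which starts at 13989684. The assembled adult transcripts start at 13981876 to 13981939, nearer to Ndufb10 (end 13979476) and Rps2 (end 13977197) than the distances given. Slc9a3r2, a scaffold protein for transporters and 88814 nt away, fell by 1.85 (adjusted p = 3.15e-05). Ndufb10, a subunit of mitochondrial complex I and 10208 nt away, averaged 269.1 ± 31.4 in fetal, 700.0 ± 142 in TAC and 740.0 ± 189 in sham (-1.43, adjusted p = 0.0015). LOC681802, the nearest at 448 nt, averaged 31.0 ± 3.39 in fetal, 59.6 ± 21.0 in TAC and 58.1 ± 10.2 in sham (-0.88, adjusted p = 0.022), a call lost under 6 alternatives.

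Rps2, a small subunit ribosomal protein gene 12487 nt away, averaged 243.8 ± 95.8 in fetal, 162.7 ± 38.2 in TAC and 231.9 ± 66.2 in sham and was not called (0.02, limma adjusted p = 0.971). Tbl3, Gfer, Nthl1 and a locus without a symbol were not called either. Rnf151, Npw, Syngr3, Noxo1, Hs3st6 and LOC681837 lay below the filter on low values. In sham replicate 2 LOC681802 carries the same assembled gene name as Rpl3l, and the libraries do not mark strand, so reads at the edge of these loci cannot be assigned with certainty.

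**Figure D4:**
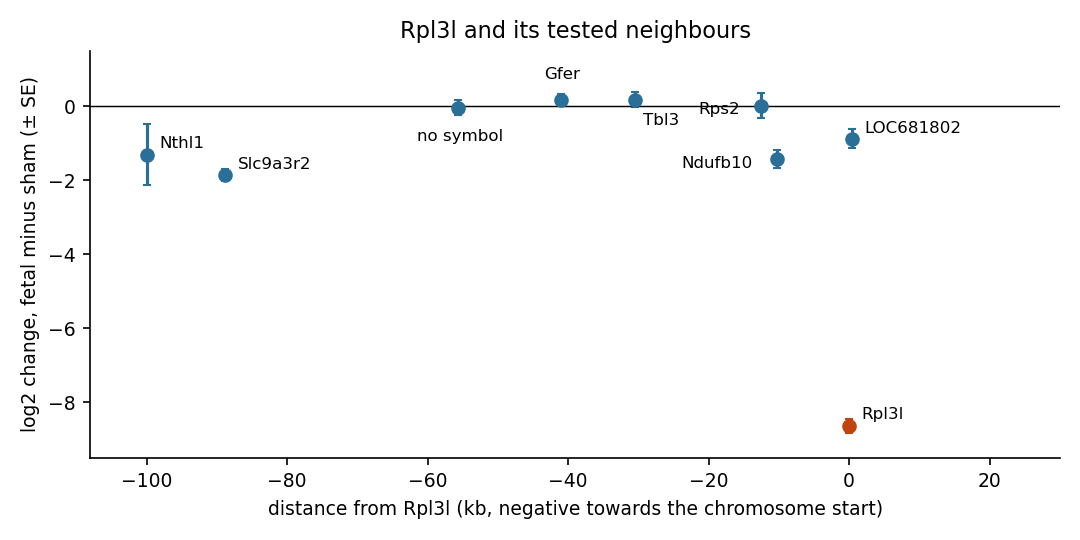
Fetal minus sham log2 difference (± standard error) of Rpl3l and the tested loci within 100 kb, by distance from the Rpl3l reference transcript in kb. Rpl3l stands at -8.63, and the neighbours lie between -1.85 and 0.18.

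Many genes had a profile close to that of Rpl3l. Among 4861 tested loci with a symbol and a mean of at least 10, Pearson's r of the log2(value + 1) profile over the 9 libraries was above 0.99 for 98 and above 0.9 for 911. The 5 highest were Clcn4-2, a chloride and proton exchanger (0.9994), Thrb (0.9991), Akr1cl1, RGD1565947 and Lpl, the lipoprotein lipase (0.9985). Apol11a, Asb10, Myom2 and LOC498368 (0.9977) were also among the 10 highest. The points share their libraries, depth and the step between fetal and adult heart. None of the 10 highest by r was among the 10 highest by Spearman's rho, and 2 were among those highest over replicates 2 and 3 alone.

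By the size of the step as well as its shape, measured as the root mean square difference of profiles after removing their means, the closest were Akr1cl1 (0.29 log2 units) and Myom2 (0.35), with Aqp7 (0.83) and Acss1 (0.93) also among the 5 closest. Akr1cl1 stood at 0.0864, 0.226 and 0.211 in fetal, 280.3, 411.3 and 355.3 in TAC, and 295.9, 436.9 and 307.6 in sham libraries. It is thus at a level similar to Rpl3l in each group.

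The lowest r belonged to Mcm6, a subunit of the replicative helicase (-0.9977), T4AF1_RAT, Epb4.1l3, a protein linking membrane and cytoskeleton, Q9QY92_RAT and Kif22, a mitotic kinesin (-0.9963). Mcm6 averaged 85.9 in fetal, 4.52 in TAC and 4.50 in sham. Over the 6 adult libraries alone, the highest r belonged to Hhatl (0.977), Zc3h8 (0.97), Pygb, a glycogen phosphorylase (0.968), Tbccd1 and LOC314140. Of these, Tbccd1 (-0.84) and LOC314140 (-0.85) had a negative r over all 9 libraries. The likeness among adult libraries alone therefore picked other genes than the likeness across the fetal to adult step. That adult ranking took the highest of 4861 candidates over 6 points, and how high r reaches without any link was not tested.

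**Figure D5:**
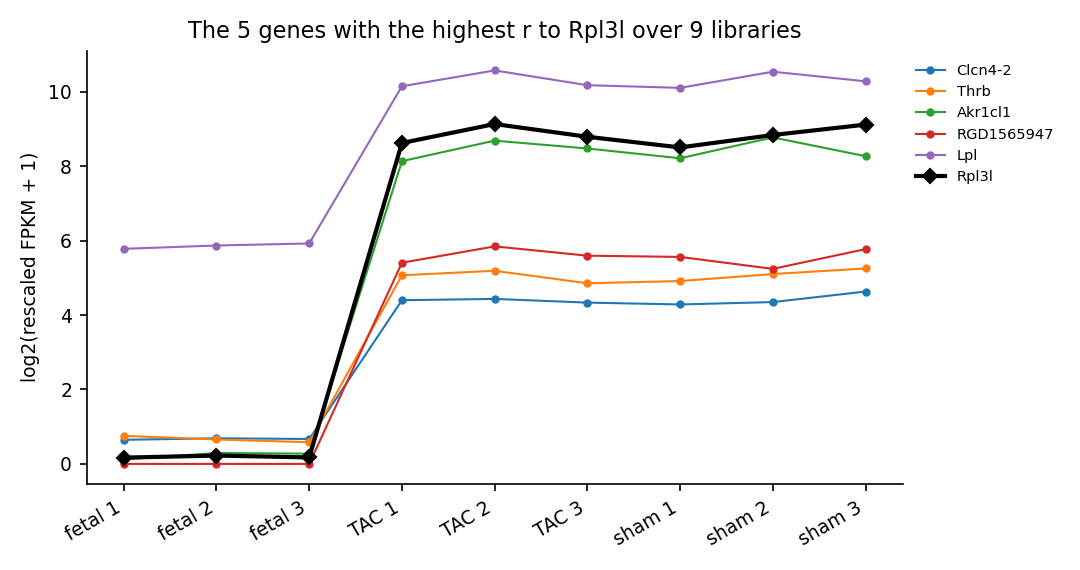
log2(rescaled FPKM + 1) of Rpl3l (black) and the 5 genes with the highest r to it, in the 9 libraries; lines join libraries only to guide the eye. The genes share a step between fetal and adult libraries at different levels, and within the adult groups their small differences vary.

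Markers of other cells moved between fetal and adult libraries. Of all tested loci 22.5% rose and 23.1% fell in fetal against sham. Macrophage markers fell in 6 of 6 tested loci, with summed levels of 58.9 to 69.3 in fetal, 298.0 to 493.6 in TAC and 278.5 to 515.0 in sham. Of 8 fibroblast markers 6 fell and 1 rose, of 5 endothelial markers 3 fell, of 4 smooth muscle markers 2 rose and of 5 erythroid markers 2 rose (limma). Of 12 skeletal muscle markers 7 had a symbol, and Myh1, Myh2, Myh4, Tnnt3 and Atp2a1 did not. Summed over the 7 genes, they stood at 3.77 to 7.84 in fetal, 0.321 to 3.33 in TAC and 0.594 to 1.33 in sham. Myod1 and Myf6 were listed at 0 in all adult libraries, while Tnni2 reached 1.97 and Mylpf 1.36 in TAC replicate 2. The part of skeletal muscle in the adult Rpl3l level was not tested. Of 13 cardiomyocyte markers only Actc1, cardiac alpha actin, had a symbol, at 14260 to 137600 in fetal, 21300 to 27590 in TAC and 21320 to 24550 in sham. The part of cell composition in the Rpl3l difference was not tested. Depth, as implied by the deposited bounds, in units of 1000000 fragments, was 21.69 to 29.7 in fetal, 8.396 to 15.88 in TAC and 16.2 to 28.39 in sham libraries, so each fetal library was deeper than every TAC library.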

How the data were processed

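Libraries were made from total RNA with a TruSeq RNA kit, a preparation without strand information. Reads were aligned with TopHat 1.3.1 to rn4 and assembled with Cufflinks 1.0.3, with Cuffdiff also used, per the submitters' processing notes. The deposited FPKM values, per gene and per isoform for each library, carry a further constant per library and were rescaled by median of ratios over 13165 loci above 0 in every library, then to a mean total of 1000000. Depth is only implied: 82.52% to 94.27% of low values came to whole fragments (tolerance 0.05).

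Libraries were assembled separately, so values were joined through 39492 reference transcripts, merged into 1 locus if at least 5 libraries put them in the same gene. Reference and assembled transcripts were summed, and 24660 loci of at least 200 nt were kept. Loci that reached 1 in 3 or more libraries were tested on log2(value + 1) with limma 3.58.1 in R 4.3.3 (lmFit, eBayes with trend, all 9 libraries) and Benjamini-Hochberg adjustment, threshold 0.05. Single values used exact permutation tests (SciPy 1.17.1). The fit was tested on simulated data. Alternatives changed pseudocount, filter, scaling, block, trend, transcripts used and libraries.

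Named are Rpl3l, Rpl3, all measured ribosomal protein paralogs and elongation factors, neighbours within 100 kb, the genes most like or unlike Rpl3l, and up to 3 called genes per direction of the other lists. Rpl5 and any others, such as Rpl39, were named after their values were seen, and some genes that met these rules are not reported here. Rpl3l and the lists were chosen with earlier results of these data known. Same-numbered libraries of different groups deviated together (correlations of 0.155 to 0.517 after removal of group means, all pairs above 0.1). Numbers 2 and 3 also correlated with each other across groups (0.128 to 0.283), while number 1 correlated negatively with both (-0.407 to -0.207). The values thus set replicate 1 apart from replicates 2 and 3, and do not show a pairing by number between 2 and 3.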

Additional observations from a re-analysis of the deposited data

How the results depend on the processing

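Rpl3 kept its calls in fetal against sham (adjusted p 5.21e-05 to 0.00376) and fetal against TAC (3.79e-05 to 0.002) in 18 of 18 alternatives each. With replicate number as a block, 6718, 2 and 6760 loci were called in fetal against sham, TAC against sham and fetal against TAC. In that limma fit Rpl3 had an adjusted p of 5.21e-05 in fetal against sham. Beyond the ribosomal protein counts given above no call of Rpl3l or Rpl3 changed. Reference transcripts alone called 2015, 36 and 2106 loci. Between TAC and sham, replicates 2 and 3 alone called 11 loci, and leaving out single libraries called 2 to 5. Rpl3l in TAC minus sham was 0.31 on reference transcripts alone, -0.051 with equal totals, -0.016 in replicates 2 and 3, and -0.13 to 0.18 when single libraries were left out. That of Rpl3 ranged from -0.39 to 0.058, and the difference in share from -2.64 to 7.51 points. With a pseudocount of 0.1 the Rpl3l fetal difference was -10.88 to sham and -10.91 to TAC, and on reference transcripts -4.16 and -4.47. On reference transcripts the signs of Casq1 (-2.85), Myom2 (1.61) and Eef2 (-0.079) also turned. In replicates 2 and 3 the fetal minus sham sign turned for Rpl36al (0.99), Rpl26l1 (-0.21), Eef2 (-0.0074), Tbl3 (-0.0069) and Rps2 (-0.37). Leaving out single libraries gave Rpl22l1 -1.20 to 0.063, Rpl36al -1.78 to 2.27, Rpl26l1 -0.41 to 1.28, Eef1b2 -2.26 to 2.42, Eef2 -0.026 to 0.21 and Rps2 -0.22 to 0.39, genes that were not called. For the reversals and moved counts the cause was not tested, except that reference transcripts leave out the assembled part. The fetal Rpl3l level is limited by its 2 fragments per library.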
